A study of Mus musculus with 12 samples.

Results

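Zbtb43 encodes a zinc finger protein of the germ line that binds alternating purine-pyrimidine DNA, and 10 mouse genes shown in browser images of its bound or methylated loci are described here through in vitro capture. The genes were Src, Cngb3, Pcdh7, Hhat, Mxi1, Tshz2, Shq1, Dhx35, Pdzd2 and Rps6kl1, out of 21938 protein-coding genes of GENCODE M21. A peak was assigned to a gene where it overlapped the gene, from its first to its last annotated base plus 10 kb on both sides, by at least 1 bp on mm10. By this rule the 10 genes held 40 of the 14694 peaks called on unmethylated DNA (TKO peaks) and 260 of the 175775 peaks called on methylated DNA (SssI peaks). Affinity sequencing had been done with MBP-ZBTB43, the protein fused to maltose-binding protein, and with MBP alone as the background. The unmethylated DNA came from male TKO ES cells, a line labelled Dnmt1-/-Dnmt3a-/-Dnmt3b-/- of 3.5 dpc origin and 1 clone (clone19), whose genetic background the labels do not give. The methylated DNA was lung DNA of wild type C57BL/6N males aged 2 months, treated with the CpG methyltransferase M.SssI, so tissue of origin and methylation both differ between them. Each of these 4 conditions had 2 libraries. Their reads were combined ahead of the calling of peaks, which left 1 list for each DNA, and no replicate error or test is given here. The 4 sperm DNA libraries of Zbtb43-/- and wild type males were not analysed here.

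Alternating purine-pyrimidine repeats, such as runs of CA or of CACG, can leave the usual right-handed helix for the left-handed Z form. DNA methylation is placed in male germ cells before birth, when the foetal prospermatogonia methylate most of the genome anew, and a sequence that escapes this step stays unmethylated in sperm. Most of it is placed at CpGs, which a repeat with C followed by G holds and a pure run of CA lacks. The genes encode proteins of different kinds. Src encodes a membrane-bound tyrosine kinase, Cngb3 a subunit of the cyclic nucleotide-gated channel of cone photoreceptors, Pcdh7 a cell adhesion protein of the protocadherin family and Hhat the acyltransferase that adds palmitate to Hedgehog proteins. Mxi1 encodes a partner of MAX that opposes MYC, Tshz2 a teashirt zinc finger protein, and Shq1 an assembly factor of H/ACA ribonucleoproteins. Dhx35 encodes a DEAH-box helicase, Pdzd2 a protein with several PDZ domains and Rps6kl1 a kinase-like protein related to the ribosomal S6 kinases.

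The peak drawn for each gene, called the pictured peak below, was the TKO peak nearest to the position printed in the image, and all 10 could be located. The positions were read from small images, and the midpoint of the chosen peak lay between 170 bp, at Rps6kl1, and 2238 bp, at Pdzd2, from them. Their sequences fell into 2 kinds, and stretches of most of them are printed first because the difference is plain in the letters. All sequences are the plus strand of GRCm38, the assembly of mm10, which is that of C57BL/6J. For the peaks of the first kind shown here the stretch lies in the longest alternating purine-pyrimidine tract and holds as many CpGs as any stretch of its length there, with CG in capitals. Of the Shq1 tract, which lies in a 3′ UTR by GENCODE M21, 30 bp are shown.
Mxi1, chr19:53349320-53349439: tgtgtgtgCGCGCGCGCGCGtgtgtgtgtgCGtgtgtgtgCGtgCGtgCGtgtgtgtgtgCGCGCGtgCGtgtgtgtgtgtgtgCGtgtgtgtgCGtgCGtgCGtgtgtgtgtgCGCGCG
Cngb3, chr4:19490447-19490566: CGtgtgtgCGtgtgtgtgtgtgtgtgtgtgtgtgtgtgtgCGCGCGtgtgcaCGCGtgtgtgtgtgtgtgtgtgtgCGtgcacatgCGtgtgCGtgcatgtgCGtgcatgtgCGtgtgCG
Pdzd2, chr15:12632345-12632439: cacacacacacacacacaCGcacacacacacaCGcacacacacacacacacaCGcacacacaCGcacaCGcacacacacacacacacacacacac
Rps6kl1, chr12:85142195-85142259: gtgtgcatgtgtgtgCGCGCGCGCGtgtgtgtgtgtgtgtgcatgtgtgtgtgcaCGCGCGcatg
Shq1, chr6:100571130-100571159: CGcacacacaCGCGcaCGcacacaCGCGCG
For the peaks of the second kind the stretch is the one of 120 bp with the most copies of GTGAGTG, in capitals, on either strand and with overlapping copies counted. The central GAG puts purines side by side, so that each copy ends an alternating run.
Src, chr2:157445122-157445241: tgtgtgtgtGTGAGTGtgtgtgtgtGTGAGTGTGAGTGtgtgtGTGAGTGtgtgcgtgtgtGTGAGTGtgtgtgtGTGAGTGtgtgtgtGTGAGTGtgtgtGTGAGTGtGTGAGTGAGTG
Pcdh7, chr5:57759562-57759681: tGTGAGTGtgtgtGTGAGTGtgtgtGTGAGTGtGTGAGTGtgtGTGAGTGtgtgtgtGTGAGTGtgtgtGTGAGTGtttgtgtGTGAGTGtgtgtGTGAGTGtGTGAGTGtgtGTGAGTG
Hhat, chr1:192671232-192671351: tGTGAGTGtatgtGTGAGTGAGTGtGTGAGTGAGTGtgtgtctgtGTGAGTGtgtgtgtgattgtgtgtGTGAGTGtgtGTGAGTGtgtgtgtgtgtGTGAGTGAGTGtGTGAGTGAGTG

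The first kind was CpG-dense. The pictured TKO peak held 89 CpGs at Mxi1, 76 at Shq1, 64 at Tshz2, 51 at Pdzd2, 41 at Rps6kl1, 37 at Dhx35 and 34 at Cngb3. Nearly all of them lay in alternating tracts of at least 12 bp, namely 89, 75, 62, 47, 39, 37 and 33 in the same order. These tracts covered between 59.6% and 100% of the peak. The longest single tract measured 65 bp at Rps6kl1, 95 bp at Pdzd2 and up to 423 bp, at Shq1. In the whole TKO list 28.1% of peaks had a tract at least as long as that of Rps6kl1, and 14.5% at least as long as that of Pdzd2. Only 101 of all TKO peaks, or 0.687%, had 30 CpGs or more, a number chosen after the peaks had been read. The Mxi1 peak was 1 of the 2 with at least 89 CpGs, the Shq1 peak 1 of 4 with at least 76 and the Tshz2 peak 1 of 8 with at least 64. The CpGs were spread along the tracts and not in 1 block, as the plot of sequence features along the peaks shows. Among these 7 peaks GTGAGTG was found only at Pdzd2, in 7 copies.

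The second kind, at Src, Pcdh7 and Hhat, had few CpGs and short tracts. The Src peak held 3 CpGs and the Pcdh7 and Hhat peaks 1 each, and the longest alternating tract was 31 bp, 30 bp and 21 bp. In the whole TKO list, 76.7% of peaks had a tract at least as long as that of Src and 89.7% at least as long as that of Hhat, so these were short tracts for a TKO peak. Instead the peaks were filled with GTGAGTG, with 34 copies at Src, 49 at Pcdh7 and 120 at Hhat. No other peak of the TKO list reached the 120 copies of Hhat, and 9 peaks including Pcdh7 and Hhat had 49 or more. All copies in the 3 peaks were on the same strand, and from one copy to the next the median step was 14 bp at Src and 12 bp at Pcdh7 and Hhat. All of the steps at Src and Hhat, and 47 of 48 at Pcdh7, were an even number of bases, which keeps copies in register with the GT repeat between them. The Hhat array ran for 1645 bp of a peak that was 1849 bp wide, and only 3 TKO peaks besides it were at least that wide.

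**Figure D1:**
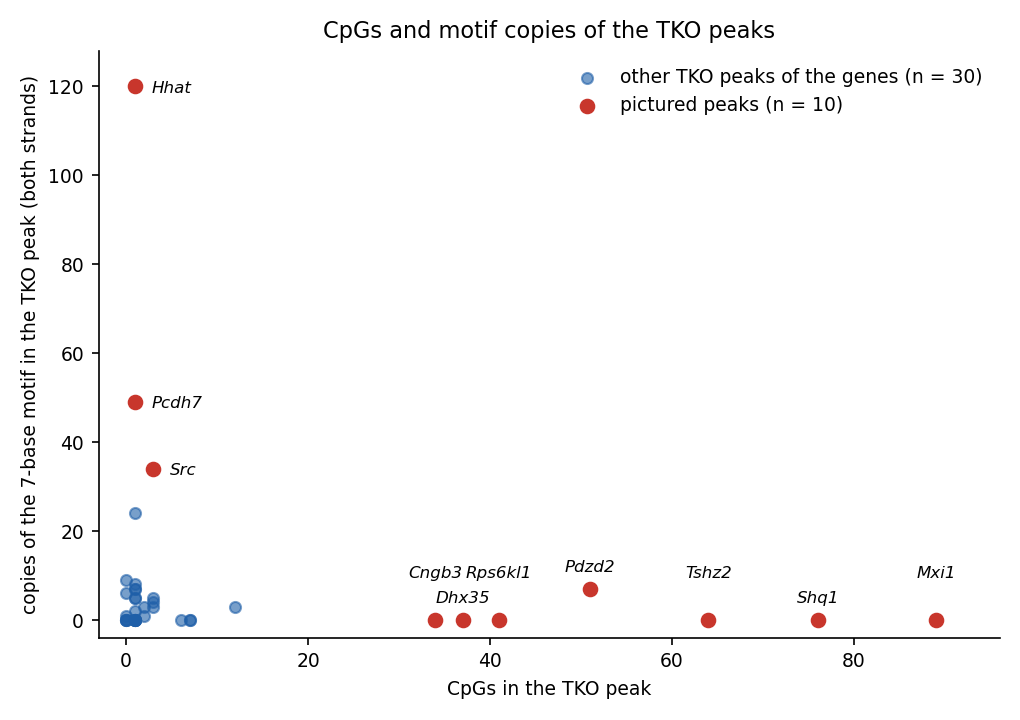
CpGs (x axis) and copies of the 7-base motif on either strand (y axis) in each of the 40 TKO peaks of the 10 genes, with pictured peaks in red and named. The 7 CpG-dense peaks lie along the x axis from 34 to 89 CpGs, and Src, Pcdh7 and Hhat lie along the y axis with 34, 49 and 120 copies.

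The text of the study names a sperm locus that depends on ZBTB43 for its methylation at Dhx35, Cngb3, Mxi1, Tshz2, Pdzd2, Shq1 and Rps6kl1. For Src, Pcdh7 and Hhat it names none, and the images show them for binding. The 7 genes of the first group were the CpG-dense ones and the 3 of the second were those with GTGAGTG arrays. The sperm loci were found by MIRA–seq, a capture of methylated DNA that favours many CpGs. The number of CpGs thus also bears on which peaks that assay can read, and its part was not tested. For Rps6kl1 the study also reports bisulfite sequencing of sperm and of foetal germ cells. The genes were picked for display by the authors, so this is a description of 10 chosen loci, and the part that their choice played was not tested. The sperm methylation data were not analysed here. In the whole TKO list 58 peaks (0.395%) had 30 copies of GTGAGTG or more, and none of these was among the 101 peaks (0.687%) with 30 CpGs or more. Sets this small would share few peaks or none in any case, so nothing is read from the lack of overlap.

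**Figure D2:**
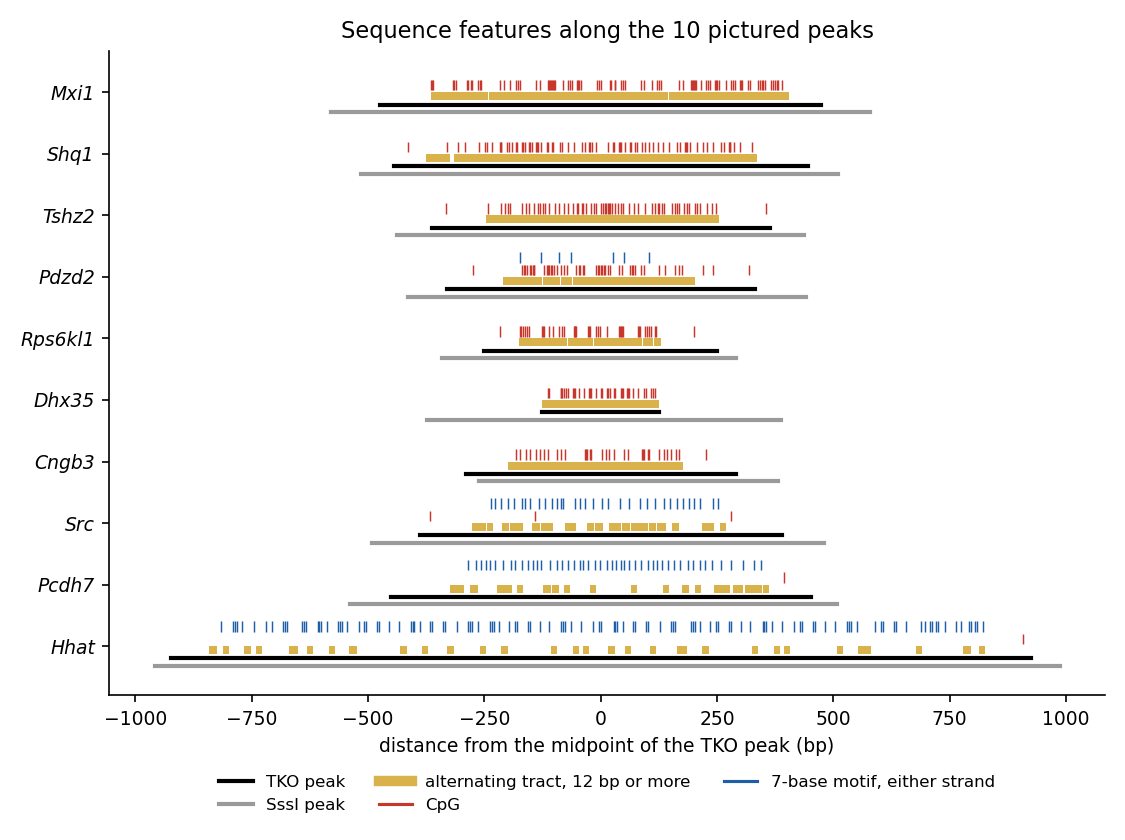
Each row is 1 pictured peak, drawn as distance in bp from the midpoint of its TKO peak on the plus strand, with the TKO peak in black, the SssI peak over it in grey, tracts of at least 12 bp in yellow, CpGs as red lines and motif copies as blue lines. The upper 7 rows carry tracts with many CpGs, and the longest tract runs from 65 bp at Rps6kl1 to 423 bp at Shq1. The rows of Src, Pcdh7 and Hhat carry many short tracts and a row of motif copies up to 1645 bp long.

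The score that the peak caller gave each peak, 10 times the −log10 q-value, served to rank peaks within a list and not between lists. A place in the list is the rank of a peak as a percentage of the list, so that a small value is a strong peak. Peaks with the same score share the best rank. The Src peak stood highest of the pictured peaks, with a TKO score of 2628 in the top 1.22%. Cngb3 followed with 2102 (top 3.87%), Pcdh7 with 1995 (top 4.63%), Mxi1 with 1947 (top 5.04%), Shq1 with 1928 (top 5.22%) and Hhat with 1898 (top 5.52%). Pdzd2 scored 1664 (top 7.30%) and Rps6kl1 1628 (top 7.60%). Below the strongest 10% were Tshz2 with 1007 (top 14.7%) and Dhx35 with 114 (top 65.2%). The 2 kinds of peak were thus interleaved in the upper part of the list, and 8 of the 10 stood in the strongest 10%. Of all 101 CpG-dense TKO peaks 59.4% stood in the strongest 10%, and of the 58 peaks with 30 or more copies of GTGAGTG 81.0%.

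The pictured peak was the highest-scoring TKO peak of its gene in 9 of 10 genes. In Src, Shq1 and Dhx35 it was the only TKO peak, so that nothing could be ranked. In Cngb3, Pcdh7, Hhat, Mxi1, Pdzd2 and Rps6kl1 the next TKO peak scored 545, 112, 1401, 71, 878 and 162. Tshz2 was the exception, with the pictured peak as the fifth of 19. By width in place of score the pictured peak came first in 10 of 10 genes. On methylated DNA it was the highest-scoring peak of Src, Mxi1, Shq1, Dhx35 and Rps6kl1. Its SssI peak was in the second place of 18 at Cngb3 and of 43 at Hhat, 3rd of 29 at Pcdh7, 4th of 39 at Pdzd2 and 22nd of 88 at Tshz2. By CpGs, in contrast, the pictured SssI peak was first in each of the 7 CpG-dense genes. The runner-up there held between 3 CpGs, at Cngb3, and 20 CpGs, at Mxi1 and Tshz2.

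None of the TKO peaks that were not pictured was CpG-dense. These 30 peaks held at most 12 CpGs, 26 of them held 3 or fewer, and none reached 30 (0 of 30, Wilson 95% upper limit 11.4%). In the whole TKO list 0.687% of peaks reached 30 CpGs, so the 0 of 30 was near the background. GTGAGTG was present in 16 of the 30 and in 20 of all 40 TKO peaks, which is 50.0% (35.2 to 64.8%, Wilson 95% interval, counting error over peaks only). In the whole TKO list 46.2% of peaks held it at least once, so the members' share was near the background. The most copies in a peak that was not pictured were 24, in a Tshz2 peak with 1 CpG, as in the second kind. All but 1 of the 40 TKO peaks, or 97.5% (87.1 to 99.6%), held an alternating tract of 12 bp or longer, against 96.5% in the whole list. The single TKO peak without one, chr2:169867368-169867605 in Tshz2, scored 206 and held 5 copies of GTGAGTG.

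**Figure D3:**
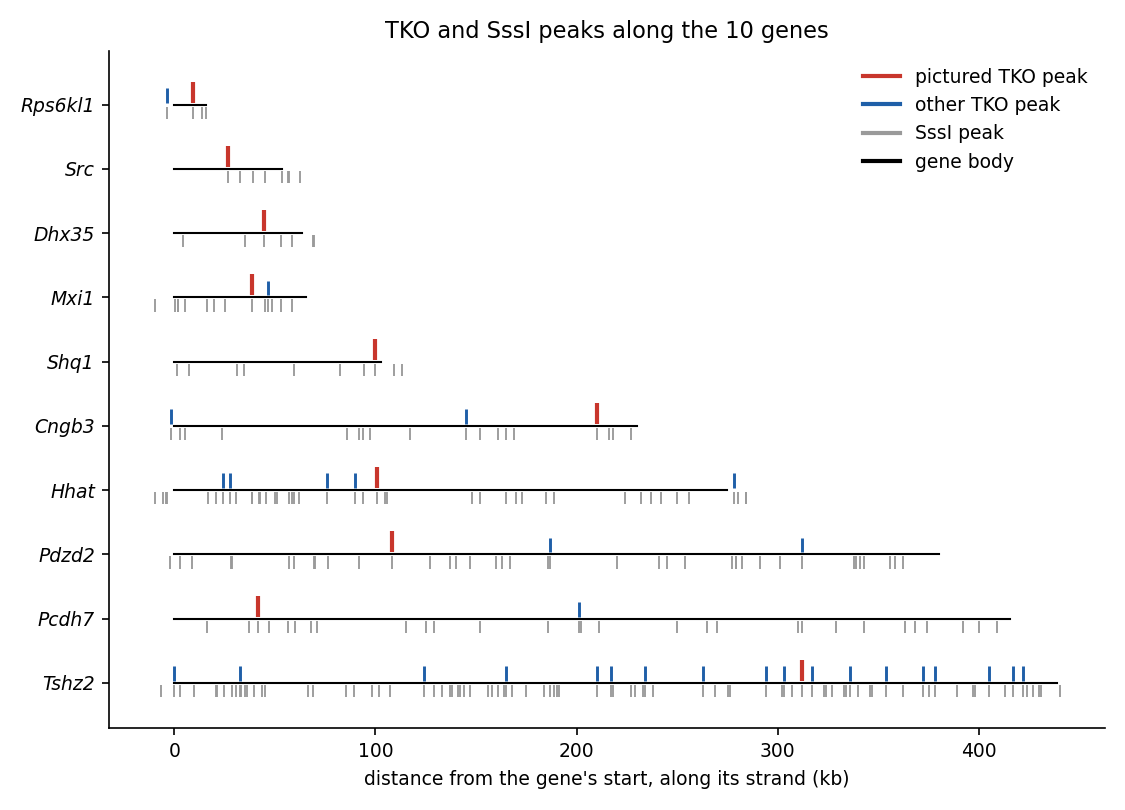
The 10 genes from the shortest to the longest, drawn from their start along their strand in kb, with TKO peaks above the line (pictured in red) and SssI peaks below it in grey. Tshz2 carries 19 TKO peaks over its whole length, whereas Src, Shq1 and Dhx35 carry 1 each.

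Tshz2 and Rps6kl1 had the most TKO peaks for their length. Src held 1 TKO and 8 SssI peaks, Dhx35 1 and 7, Shq1 1 and 10, and Mxi1 2 and 14. Pcdh7 held 2 and 29, Cngb3 3 and 18, Pdzd2 3 and 39, and Hhat 6 and 43. Tshz2 held 19 and 88, and Rps6kl1, the shortest gene, held 2 and 4. Per 100 kb the TKO peaks numbered 5.55 at Rps6kl1, 4.14 at Tshz2, 2.34 at Mxi1, 2.04 at Hhat, 1.36 at Src, 1.20 at Cngb3 and at Dhx35, 0.814 at Shq1, 0.750 at Pdzd2 and 0.459 at Pcdh7. Pcdh7 alone was below the 0.555 per 100 kb of the genome without unknown bases, and values from 1 or 2 peaks are imprecise. Together the genes held 1.79 TKO peaks per 100 kb (1.28 to 2.43, exact Poisson 95% interval), and 1.18 without Tshz2. A TKO peak within 10 kb was found for 24.7% of all protein-coding genes, and all 10 had one because a peak was what they were shown for. Only 7 protein-coding genes, Tshz2 included, had 19 or more TKO peaks.

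By their midpoint, 35 of 40 TKO peaks lay in introns (87.5%, 73.9 to 94.5%). The same was true for 235 of 260 SssI peaks (90.4%, 86.2 to 93.4%). Peaks were taken only from genes and 10 kb beside them, which favours introns. The intron share of the whole lists and of the spans was not computed, so no trait of these peaks is read from it. Intron and exon numbers here follow the best supported protein-coding transcript of GENCODE M21 over the midpoint, which can be another one for each peak of a gene, so the distances below are the surer guide. Of the pictured peaks, Pcdh7 and Tshz2 lay in intron 1, Src and Pdzd2 in intron 2, Mxi1 in intron 3, Rps6kl1 in intron 4, Hhat in intron 8, Dhx35 in intron 14 and Cngb3 in intron 15. By this annotation the Shq1 peak lay in exon 11, in the 3′ UTR, with its midpoint 1293 bp from the printed position. The study describes its hypomethylated region as downstream of Shq1. The distance from the gene's start was 9.09 kb at Rps6kl1, 26.9 kb at Src, 38.6 kb at Mxi1, 41.7 kb at Pcdh7, 44.5 kb at Dhx35, 99.9 kb at Shq1, 101 kb at Hhat, 108 kb at Pdzd2, 210 kb at Cngb3 and 312 kb at Tshz2. The TKO peaks with a midpoint outside the transcribed spans were upstream of Cngb3, Tshz2 and Rps6kl1 and downstream of Hhat, the last inside the neighbouring gene Kcnh1. The end of the Tshz2 peak reached into the gene. GTGAGTG stood at least once in 5.10% of 32851 RefSeq promoters of 300 bp on GRCm38.p6, and in 17.4% of all SssI peaks.

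All 40 TKO peaks overlapped an SssI peak, as 99.4% of the whole TKO list did. Conversely 40 of the 260 SssI peaks overlapped a TKO peak, which is 15.4% (11.5 to 20.3%) against 8.23% in the whole SssI list. Tshz2 supplied 19 of these 40 overlaps, and without it the share was 12.2% (8.13 to 17.9%), an interval that reaches the value of the whole list. By gene the share ran from 6.90% at Pcdh7 to 50.0% at Rps6kl1, where 2 of 4 SssI peaks were shared. The SssI peak was the wider one of the pair in all 40 cases, by 1.02 to 4.43 times with a median of 1.41. At Dhx35 it was 763 bp wide against 251 bp for the TKO peak and held 60 CpGs against 37.

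In 33 of 40 pairs the peak stood nearer the top of the SssI list than of the TKO list. Over the whole TKO list this held for 14026 of the 14610 peaks with an SssI peak, whose median place was the top 49.8% of the TKO list and the top 4.60% of the longer SssI list. It held for 5 of the 12 member peaks in the strongest 10% of the TKO list, against 65.9% of all such peaks, and for 28 of the other 28, against 99.4%. A higher place in the SssI list is thus what most TKO peaks had, and nothing particular to these genes is read from it. The pictured SssI peaks scored 1547 at Rps6kl1 (top 1.96%), 1427 at Mxi1 (top 2.75%), 1313 at Hhat (top 3.55%) and 836 at both Src and Shq1 (top 7.93%). They scored 799 at Dhx35 (top 8.35%), 764 at Cngb3 (top 8.78%), 702 at Pdzd2 (top 9.65%), 647 at Pcdh7 (top 10.5%) and 598 at Tshz2 (top 11.2%). This order was not that of the CpGs, since the SssI peaks of Src with 6 CpGs and of Shq1 with 76 had the same score. Tissue of origin, methylation and the length of the list all differ between the 2 lists, and their parts in a place cannot be told apart here.

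**Figure D4:**
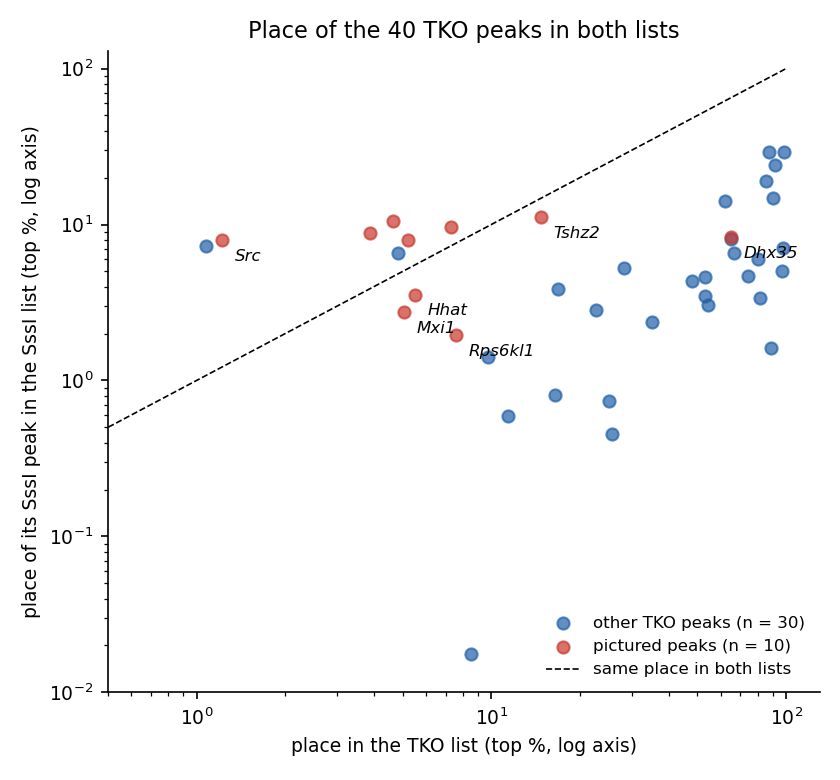
Place of each of the 40 TKO peaks in the TKO list (x axis, top percentage, log axis) and of the SssI peak over it in the SssI list (y axis, top percentage, log axis). Points under the dashed line stood nearer the top of the SssI list, which holds for 33 of 40, with pictured peaks in red, and for 14026 of the 14610 peaks of the whole TKO list that have an SssI peak.

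Tshz2 had the most peaks of the 10 genes and was the only one whose pictured peak was not its strongest TKO peak. Its highest TKO score was 2681 (top 1.08%) at chr2:169968500-169969058, 336 kb from the start, which is the highest TKO score in any of the 10 genes. This peak held 7 CpGs, no GTGAGTG and only a single alternating tract of 13 bp, and 22.5% of it was marked as repeat in the reference. A stretch of it is shown because a related word, GTAAGTG, in capitals, recurs there 3 times.
Tshz2, chr2:169968739-169968819: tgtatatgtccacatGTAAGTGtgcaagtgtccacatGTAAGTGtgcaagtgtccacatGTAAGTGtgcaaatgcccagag
GTAAGTG was found in 11.3% of all TKO peaks and in 2.62% of the promoters. In the SssI list the same locus scored 904 (top 7.24%). The next TKO peaks were chr2:169986268-169986847, with a score of 1975, 24 copies of GTGAGTG and 1 CpG, and chr2:169842700-169843087, with a score of 1531, 9 copies and no CpG. The last of these had the highest SssI score of all 260 SssI peaks, 2309, in place 31 of the whole SssI list, and its richest 120 bp read as follows with GTGAGTG in capitals.
Tshz2, chr2:169842827-169842946: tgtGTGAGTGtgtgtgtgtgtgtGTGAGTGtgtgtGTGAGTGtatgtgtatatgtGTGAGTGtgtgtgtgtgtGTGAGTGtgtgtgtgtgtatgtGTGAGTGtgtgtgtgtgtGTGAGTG
The fourth peak, chr2:169632653-169633034, reached the annotated start of Tshz2, with 12 CpGs, a TKO score of 1258 and an SssI score of 1898 (top 0.589%).

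The other 14 TKO peaks of Tshz2 besides the pictured one scored between 33 and 901. Moderate scores were 901, 615, 524, 468 and 344, at 405, 317, 378, 417 and 294 kb from the start, and in the SssI list these loci scored 1827, 1418, 1946, 1110 and 1492. Of these, the peak at 417 kb had the longest tract, 117 bp without a CpG. The weaker ones scored 206, 173, 127, 89, 72, 61, 58, 54 and 33, and the SssI peaks over them 1216, 1321, 464, 1174, 1023, 194, 1630, 440 and 920. The TKO score of 58, in the top 88.5%, and the SssI score of 1630, in the top 1.61%, belong to 1 locus at 32.5 kb. The pictured peak of Tshz2 had more CpGs than any other Tshz2 peak, and an SssI score below that of 21 others. Of the 69 SssI peaks of Tshz2 without a TKO peak, the strongest scored 1506 at chr2:169796948-169797313 and held 3 CpGs.

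**Figure D5:**
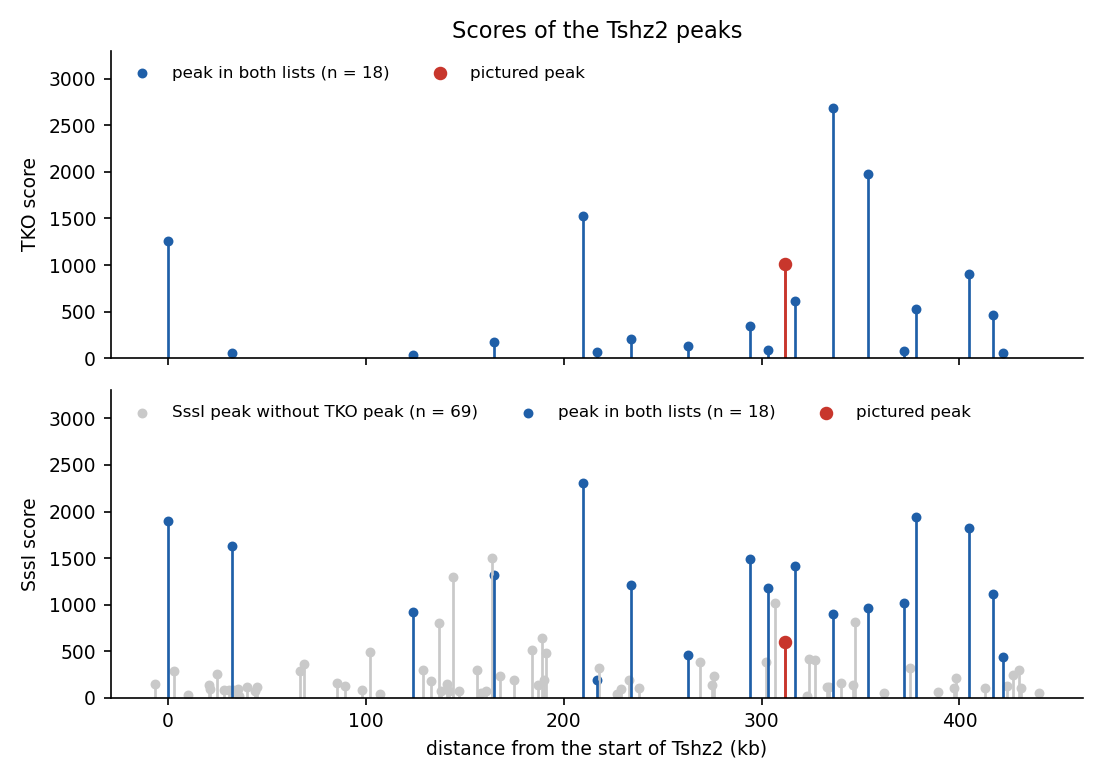
Scores of the Tshz2 peaks against distance from the start of the gene in kb, in the TKO list (upper panel, 19 peaks) and the SssI list (lower panel, 88 peaks). The pictured peak, in red, scored 1007 and 598, under the highest scores of 2681 and 2309 in blue, and grey peaks were found on SssI DNA alone.

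In the other genes the remaining TKO peaks scored between 30 and 1401 on TKO DNA. Upstream of Cngb3, at -1.49 kb from its start, chr4:19279207-19279517 scored 545 (top 25.1%) without a single CpG, and its SssI peak had the highest score of the gene, 1845 (top 0.742%), above the 764 of the pictured peak. This locus is shown because neither its TKO nor its SssI peak holds a CpG. With 100 bp added on both sides each held 1, so captured fragments can carry a CpG, and the part of methylation in its score was not tested. The longest tract of both peaks is a run of TG.
Cngb3, chr4:19279291-19279327: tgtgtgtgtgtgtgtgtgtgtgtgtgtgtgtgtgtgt
The third Cngb3 peak, in intron 12, scored 52 and 241 in the TKO and SssI lists and held 1 CpG. In Mxi1 the second TKO peak, 46.8 kb from the start in the same intron as the pictured one, scored 71 (top 81.4%) with no CpG and 6 copies of GTGAGTG, and its SssI peak, with 2 CpGs, scored 1331 (top 3.40%). In Pcdh7 the second peak, in intron 2, scored 112 and 963 and consisted mostly of a tract of 124 bp without a CpG.

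Hhat held 5 more TKO peaks. The strongest, in intron 3 at chr1:192743227-192743777, scored 1401 (top 9.72%) with 5 copies of GTGAGTG, and its SssI score of 1666 was the highest of Hhat, above the 1313 of the pictured peak. The others scored 172, 114, 64 and 35 on TKO DNA and 1186, 829, 327 and 1134 on SssI DNA, with between 1 and 2 CpGs. Hence no Hhat peak in the TKO list had more than 3 CpGs. In Pdzd2, where the pictured peak was 108 kb from the start, the peak at 187 kb scored 878 and 1278 with 3 CpGs, and that at 312 kb scored 30, the lowest of all 40, and 194. Upstream of Rps6kl1, at -3.70 kb from its start, the second peak scored 162 and 1389 and held 7 CpGs, all inside a single tract of 56 bp. Among the TKO peaks that were not pictured it was the only one with more than 1 CpG in its longest tract.

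The 220 SssI peaks without a TKO peak scored lower than the shared ones, as in the whole list. Their median score was 116 against 1122 for the 40 shared ones, and in the whole SssI list the median of shared peaks was 1187 and that of all peaks 108. They held at most 20 CpGs and 3 copies of GTGAGTG, and 51 of them (23.2%, 18.1 to 29.2%) had no CpG, against 1 of 40 shared peaks. In the whole SssI list 33.8% of peaks without a TKO peak had no CpG, 10.6% of shared peaks and 31.9% of all. The whole peak, which is longer in shared peaks, was counted. After that of Tshz2 the strongest single one of a gene was at Hhat, with a score of 1262 and no CpG at chr1:192491132-192491459, and then at Pdzd2 with 769, Pcdh7 with 709, Cngb3 with 647 and Shq1 with 561. Dhx35, Src, Mxi1 and Rps6kl1 followed with 438, 298, 287 and 212. The Mxi1 peak, in intron 1, held 20 CpGs. The Cngb3 peak, in intron 10, was the widest of those not pictured at 988 bp. The longest tract outside the pictured peaks, 202 bp, lay in intron 9 of Rps6kl1 in a peak that scored 189 and held 1 CpG.

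In the whole TKO list GTGAGTG was more frequent among strong peaks. It was present in 78.0% of the strongest 10% of TKO peaks (75.8 to 80.1%) and in 30.5% of the weakest 10% (28.2 to 32.9%), where median width also fell from 493 to 178 bp. Within 100 bp of the midpoint, which sets width aside, the shares were 74.8% and 30.8%. Of the 12 member peaks in the strongest 10%, 7 held the word and 5 were CpG-dense, with Pdzd2 in both sets. The strongest peak of Tshz2 was the only one with neither. CpG density per kb moved less, from 12.1 to 7.76.

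Relatives of the 10 genes, such as the kinase Fyn, the channel subunit Cnga2, the protocadherin Pcdh9 and the kinase Rps6kc1, were read for comparison from a list of 40 genes. A TKO peak was within 10 kb of 10 of the 40, with 21 TKO and 247 SssI peaks in all, and their median extended span of 45.7 kb was shorter than the 186 kb of the 10 genes. No TKO peak of a relative held more than 25 CpGs, the value at Rps6kc1. In the whole TKO list only 0.687% of peaks held 30 or more, so none among 21 peaks was near the background. Tshz3, a paralogue of Tshz2 and the only teashirt gene of that list, had no TKO peak and 12 SssI peaks with scores up to 897. Of other genes named for sperm methylation in the study, Arid2 had 1 TKO peak with a score of 603 and 22 CpGs, and its SssI peak scored 1440. Ago2, also named there, had no TKO peak by the gene rule used here, although the study shows a peak on TKO DNA at Ago2. It had 8 SssI peaks, with scores up to 800 and at most 19 CpGs, so not every gene named for sperm methylation held a CpG-dense TKO peak.

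At the edge of the gene rule, the TKO peak nearest inside the limit was that downstream of Hhat, 6411 bp inside, with a score of 35. The nearest outside was 1949 bp beyond the limit of Dhx35, at chr2:158870163-158870368, with a score of 423 and 10 CpGs. In the SssI list the nearest inside, 375 bp within the limit of Hhat, scored 80, and the nearest outside, 345 bp beyond that of Rps6kl1, scored 76.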

How the data were processed

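Per the labels and the methods, the authors aligned reads with BWA 0.7.17 to mm10, pooled each pair of libraries and ran MACS2 2.2.7.1 with MBP as control. The 2 lists they deposited give a whole-number score for each peak, 10 times its −log10 q-value, which rises with depth. They hold no counts, so the depth and precision behind a peak were not computed here, and the methods give 1 depth for all affinity-seq libraries alike. The methods name a filter on mapping quality for affinity-seq alignments in some heatmaps, but not for the calling of peaks. Reads from repeats can map to several places. Peak numbers run 416 and 3891 past the number of TKO and SssI peaks, so some had been removed.

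Here, peaks were assigned to genes of GENCODE M21, overlaps were checked with bedtools 2.31.1, and CpGs, alternating tracts of at least 12 bp (A and T alone left out) and motif copies were counted on GRCm38 with Python 3.11.15, pandas 2.3.3 and pysam 0.24.0. The DNA used can differ from the reference in repeat length. Counting was tested on simulated data. Some sequences are not reported here. The pictured peak was the TKO peak with its midpoint nearest to the position printed in the image, at most 20 kb away. The text names each pictured peak, the highest-scoring peak of each list, every other TKO peak, and single SssI peaks that were strongest, widest or with the longest tract. Members, relatives and lists were chosen with earlier results of these data known, and both motifs after the sequences had been read. With 1 pooled list for each DNA, no test was made, and data of single libraries were not used here. Wilson 95% intervals cover counting error over peaks, and peaks of a gene are not replicates. Alternatives covered the span, score, overlap, tract length and CpG window.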

Additional observations from a re-analysis of the deposited data

How the results depend on the processing

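Of 52 alternatives, 45 left the value within 1.5 times (counts) or inside the interval of the reported value, and 7 moved it further. With a minimum tract of 24 bp the share of TKO peaks with a tract was 80.0% in place of 97.5%, and that of SssI peaks 95.4% at 16 bp and 88.8% at 24 bp in place of 98.1%. The share without a CpG was 32.5% (TKO) and 28.8% (SssI) within 100 bp of the midpoint, and 0% (0 of 40, Wilson 95% upper limit 8.76%) and 5.77% with 100 bp added on both sides, against 17.5% of whole TKO peaks. With 50 kb added to the genes, the pictured peak had the highest score in 7 genes, because neighbouring TKO peaks scored 2605 near Mxi1 and 423 near Dhx35. With 40 CpGs or more in place of 30, a threshold added after the data had been seen, 5 pictured peaks were CpG-dense in place of 7. No paired analysis was possible because the lists used here were called on pooled duplicates and carry no replicate number, and for the same reason no replicate was left out. Data of single libraries were not used here. The lists do not give the depth behind a peak, which limits what a missing TKO peak can show.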
